A study of Homo sapiens with 16 samples.

Results

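The genes described here are 45 genes of glycolysis, gluconeogenesis, glycogen metabolism, glucose transport and pyruvate control, with TXNIP, measured in HepG2 cells given an adenovirus. They were taken from a fixed list of symbols, and a symbol was kept where the array held a probe set annotated to that gene alone. All 45 had such a probe set, out of 11963 genes on the array. The probe sets annotated to these genes alone numbered 69, and a further 2 were shared with another gene. Of the 45, 36 were bright enough to be tested, among 8109 genes tested in all. The other 9 (HK1, PFKFB3, PFKFB4, LDHB, PDK1, PDK4, G6PC1, GYS2 and PYGB) had mean signals under the filter of 208.5 and were not tested.

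Glycolysis splits glucose into pyruvate in the cytosol, and its controlled steps are those of hexokinase, phosphofructokinase and pyruvate kinase. The liver also runs the pathway in reverse, bypassing those steps with pyruvate carboxylase, PEP carboxykinase, fructose bisphosphatase and glucose 6-phosphatase, and it stores glucose as glycogen and releases it from there. Hepatoma lines such as HepG2, derived from a human liver tumour, are known for rapid glycolysis with isoforms that differ from those of normal hepatocytes. The gene GPI in this set encodes glucose 6-phosphate isomerase and is unrelated to the glycosylphosphatidylinositol (GPI) anchor that GPI-PLD, the phospholipase D encoded by one of the viruses, cleaves from cell surface proteins.

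The 4 groups were cells with the GPI-PLD adenovirus cultured for 12 h, the same virus for 6 h, the LacZ adenovirus for 12 h, and the LacZ adenovirus for 6 h, with 4 arrays each. LacZ encodes beta-galactosidase and served as the control, so that every group was transduced and no group was free of virus. Signals are MAS5 intensities on a linear scale, and array medians lay between 304.5 and 377.6. Mean correlations between arrays of a group were 0.938 in GPI-PLD 12 h, 0.956 in GPI-PLD 6 h, 0.955 in LacZ 12 h and 0.95 in LacZ 6 h, and GAPDH 3' to 5' control ratios ran from 0.864 to 1.116. All 9 hepatocyte and hepatoma markers on the array were above the filter, with mean signals of 4019.5 to 85989.6. Some markers of other cell types were above it too: 4 of 6 fibroblast and stellate, 1 of 5 endothelial and 2 of 4 leukocyte markers. The same held for 1 of 2 erythroid, 1 of 5 muscle and 2 of 3 neuron and glia markers. LYZ at 9632.0 was the bright exception among these, and the next brightest was COL1A1 at 773.5. The filter therefore also passed genes that mark other cell types. The brightest of 5 probe sets of GPLD1, the human gene for GPI-PLD, read 328.3 ± 46.9 in GPI-PLD cells and 318.6 ± 137 in LacZ cells at 12 h, a log2 difference of 0.12 ± 0.33 (SE; 95% interval -0.57 to 0.80, adjusted p 0.959). At 6 h it read 284.3 ± 138 in GPI-PLD cells and 260.5 ± 37.7 in LacZ cells, a log2 difference of 0.02 ± 0.33 (-0.67 to 0.70, adjusted p 0.998). GPLD1 signal therefore gave no check of the virus labels, and whether these probe sets cover the vector's transcript was not tested.

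A few glucose metabolism genes differed between 6 h and 12 h, and none differed between the viruses past the test. Because no group was free of virus, whether the differences with time arise without a virus was not tested. Between 6 h and 12 h, 7 of the 36 tested genes passed in GPI-PLD cells (limma, Benjamini-Hochberg adjusted p under 0.05 over all 8109 genes). GOT1, PCK2 and SLC2A1 rose, and LDHA, PGAM1, SLC2A2 and TXNIP fell. The array held only 1 probe set each for GOT1, PCK2, LDHA, PGAM1 and SLC2A2, so their calls had no second reading. In LacZ cells 3 passed: GOT1 and PCK2 rose and TXNIP fell. The share of members called was 19.4% in GPI-PLD cells, where 9.64% of all genes tested were called (4.59% up and 5.06% down). It was 8.33% in LacZ cells, where 6.89% of all genes were called (3.64% up and 3.26% down). The share in LacZ cells is near that over all genes. With arrays scaled to their 75th percentile, the calls over all genes in LacZ cells split as 243 up and 391 down, in place of 295 up and 264 down.

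The median log2 difference between 12 h and 6 h over the 36 genes was -0.09 in GPI-PLD cells (13 higher and 23 lower), against 0.01 over all genes tested. In LacZ cells it was 0.07 (20 higher and 16 lower), against 0.0 over all genes. The 95% interval of a gene's difference reached a median of 0.29 log2 units to either side. Most changes under that size were therefore not detectable with 4 arrays a group. That interval is not adjusted for the number of genes, so the adjusted test also left larger differences uncalled. An example is SLC2A2 between the viruses at 12 h (-0.48, limma adjusted p 0.38). The labels do not state that the 4 arrays of a group are separate cultures, so the p-values cover only the spread among these arrays, which may be technical.

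**Figure D1:**
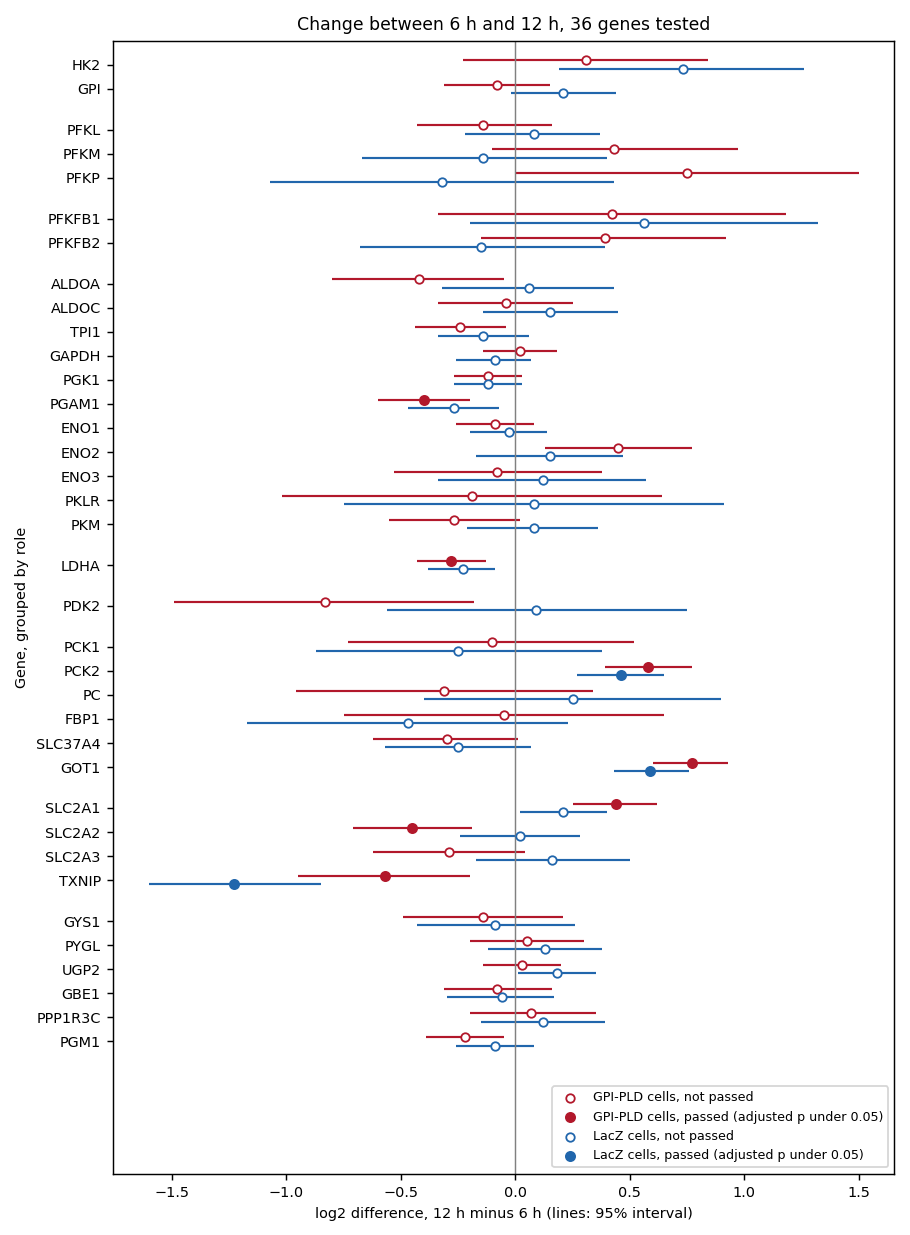
Log2 difference between 12 h and 6 h (x axis, 12 h minus 6 h, on log2(signal + 63)) for the 36 tested genes (y axis, grouped by role) in GPI-PLD cells (red) and LacZ cells (blue). Lines are 95% intervals and filled points passed at an adjusted p under 0.05: 7 genes in GPI-PLD cells and 3 in LacZ cells. GOT1 and PCK2 stand furthest right among the filled points and TXNIP in LacZ cells furthest left.

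Promoter windows are shown for the 3 genes called under both viruses, GOT1, PCK2 and TXNIP, and for LDHA. LDHA was called in GPI-PLD cells and had a lower mean at 12 h under LacZ too. The same was true of PGAM1, whose window is not shown, so LDHA was a choice and its matches do not stand for the called genes. The sequences are RefSeq's (build GRCh38.p14), 300 bases each, 5′ to 3′ on the gene's strand, with 250 bases before and 50 after a transcription start; for PCK2 that start lies inside the annotated gene, downstream of its outermost start. They lie at chr10:99430575-99430874 (minus strand) for GOT1, chr14:24094061-24094360 (plus strand) for PCK2, chr1:145996530-145996829 (minus strand) for TXNIP and chr11:18394313-18394612 (plus strand) for LDHA. Capitals mark matches, on either strand, to the hypoxia response core ACGTG, the E-box CACGTG, the C/EBP-ATF element TGATGNAA and the cyclic AMP response element TGACGTCA. An E-box always contains the ACGTG core, so that these 2 matches overlap.
GOT1: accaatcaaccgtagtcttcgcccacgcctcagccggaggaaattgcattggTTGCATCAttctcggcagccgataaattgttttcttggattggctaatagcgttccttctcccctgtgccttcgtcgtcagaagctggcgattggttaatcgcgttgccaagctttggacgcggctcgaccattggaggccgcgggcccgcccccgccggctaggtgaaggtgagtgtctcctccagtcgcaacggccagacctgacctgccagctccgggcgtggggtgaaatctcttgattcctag
PCK2: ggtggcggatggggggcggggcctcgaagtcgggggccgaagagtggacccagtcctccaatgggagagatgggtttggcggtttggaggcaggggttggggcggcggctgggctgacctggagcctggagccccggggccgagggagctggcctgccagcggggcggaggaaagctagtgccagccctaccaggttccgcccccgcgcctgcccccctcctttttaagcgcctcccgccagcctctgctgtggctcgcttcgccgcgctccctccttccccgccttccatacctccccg
TXNIP: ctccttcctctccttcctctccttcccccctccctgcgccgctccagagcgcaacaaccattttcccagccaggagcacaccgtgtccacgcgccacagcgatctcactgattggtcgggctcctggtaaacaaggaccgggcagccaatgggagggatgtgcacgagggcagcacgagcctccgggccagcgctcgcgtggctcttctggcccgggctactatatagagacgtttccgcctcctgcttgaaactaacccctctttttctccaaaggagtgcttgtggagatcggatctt
LDHA: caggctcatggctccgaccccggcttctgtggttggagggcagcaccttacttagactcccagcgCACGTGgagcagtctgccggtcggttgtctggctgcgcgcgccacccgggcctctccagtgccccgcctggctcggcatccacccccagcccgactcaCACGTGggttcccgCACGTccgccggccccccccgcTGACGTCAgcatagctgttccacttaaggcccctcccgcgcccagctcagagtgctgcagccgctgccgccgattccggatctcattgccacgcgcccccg

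In the GOT1 window 1 match to TGATGNAA was found, on the opposite strand at bases 53 to 60, and 3.6% of all 35116 windows in the table held that motif. The LDHA window held E-boxes at bases 66 to 71 and 164 to 169, a further ACGTG on the opposite strand at bases 178 to 182, and TGACGTCA at bases 200 to 207. Over all windows the shares were 21.4% for ACGTG, 7.3% for CACGTG and 1.8% for TGACGTCA. The printed windows of PCK2 and TXNIP held no exact match to these motifs, although a second TXNIP window in the table held ACGTG. Inexact matches were not searched for. Among the 75 windows of 41 of the 45 genes, 34.7% held ACGTG, 12.0% CACGTG, 5.3% TGATGNAA and 1.3% TGACGTCA.

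Glucose enters cells through the SLC2A transporters, and of SLC2A1, SLC2A2 and SLC2A3 the first rose and the second fell with time in GPI-PLD cells. SLC2A1 (GLUT1), the widely expressed high-affinity transporter, gave signals of 7906.5, 8719.6, 9701.9 and 8925.2 in the GPI-PLD 12 h arrays, against 6474.8, 6072.6, 6161.5 and 7251.3 at 6 h. All 4 arrays at 12 h lay above all 4 at 6 h. SLC2A1 rose 1.35-fold (log2 0.44 ± 0.09, SE; adjusted p 0.00226). In LacZ cells it read 7154.6, 8243.3, 7376.3 and 8094.5 at 12 h, against 6002.2, 7189.4, 7386.7 and 6144.8 at 6 h, with overlapping groups (0.21 ± 0.09, adjusted p 0.185). The time effects of the 2 viruses differed by 0.23 ± 0.13 (GPI-PLD minus LacZ; adjusted p 0.71). A second, dimmer SLC2A1 probe set gave 0.11 ± 0.26 in GPI-PLD and 0.07 ± 0.26 in LacZ cells, and on the mean of both probe sets the GPI-PLD change was 0.27 (adjusted p 0.192).

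SLC2A2 (GLUT2), the low-affinity transporter of hepatocytes and pancreatic beta cells, had its lowest group mean in the GPI-PLD 12 h arrays. Its signals there were 1419.0, 927.8, 1012.9 and 1149.6, against 1710.8, 1500.9, 1528.7 and 1440.6 in GPI-PLD cells at 6 h. The LacZ arrays read 1605.1, 1435.8, 1523.0 and 1779.7 at 12 h and 1355.7, 1690.5, 1662.9 and 1536.6 at 6 h. The GPI-PLD 12 h arrays lay below all arrays of GPI-PLD 6 h and of LacZ 12 h, while the LacZ times overlapped. SLC2A2 fell 1.36-fold with time in GPI-PLD cells (log2 -0.45 ± 0.13, adjusted p 0.0246), and its difference was 0.02 ± 0.13 in LacZ cells (adjusted p 0.956). The difference of the time effects was -0.47 (95% interval -0.84 to -0.10) and did not pass (adjusted p 0.508). The GPI-PLD call was lost in 6 of 27 alternative settings, 4 of which left out 1 array: GPI-PLD 6 h replicate 1 (adjusted p 0.0805) or 3 (0.0562), or GPI-PLD 12 h replicate 2 (0.0806) or 3 (0.0673).

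SLC2A3 (GLUT3), a high-affinity transporter best known from neurons, averaged 2264.5 ± 376 in GPI-PLD and 3001.2 ± 345 in LacZ cells at 12 h, and 2818.7 ± 680 in GPI-PLD and 2693.1 ± 452 in LacZ cells at 6 h (SD, n = 4 each). Its time effects were -0.29 ± 0.16 in GPI-PLD cells (adjusted p 0.295) and 0.16 ± 0.16 in LacZ cells (0.648). Another 4 probe sets were annotated to SLC2A3, 2 of them shared with SLC2A14, and in GPI-PLD cells they gave -0.46 to -0.09. In LacZ cells these 4 gave -0.29 to 0.23, and only 1 of them had the sign of the brightest set.

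TXNIP encodes thioredoxin-interacting protein, an arrestin family protein known to be induced by glucose and to restrain glucose uptake. Its fall in LacZ cells was the largest called change of the 36 genes. There it read 372.7, 420.7, 790.4 and 556.0 at 12 h, against 1265.9, 1244.2, 1376.1 and 1275.1 at 6 h. The groups were far apart, and TXNIP fell 2.34-fold (log2 -1.23 ± 0.18, adjusted p 6.71e-05). In GPI-PLD cells the signals were 601.7, 842.4, 763.5 and 732.7 at 12 h, against 1314.9, 1261.5, 1081.3 and 864.8 at 6 h. The highest 12 h array lay just under the lowest 6 h array, and the fall was 1.49-fold (-0.57 ± 0.18, adjusted p 0.0455). That call was lost in 15 of 27 alternatives, among them leaving out any of 11 single arrays (adjusted p up to 0.136, without GPI-PLD 12 h replicate 1).

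Both other TXNIP probe sets were also lower at 12 h under each virus. In a fit of all probe sets, one gave -1.64 ± 0.31 in GPI-PLD cells (adjusted p 0.00279) and -1.09 ± 0.31 in LacZ cells (0.0699), and the other -0.36 ± 0.19 (0.355) and -0.60 ± 0.19 (0.097). The probe sets disagreed on which virus had the larger fall: the difference of the time effects was 0.65 ± 0.25 at the brightest set (adjusted p 0.526), and 0.24 and -0.55 at the others.

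**Figure D2:**
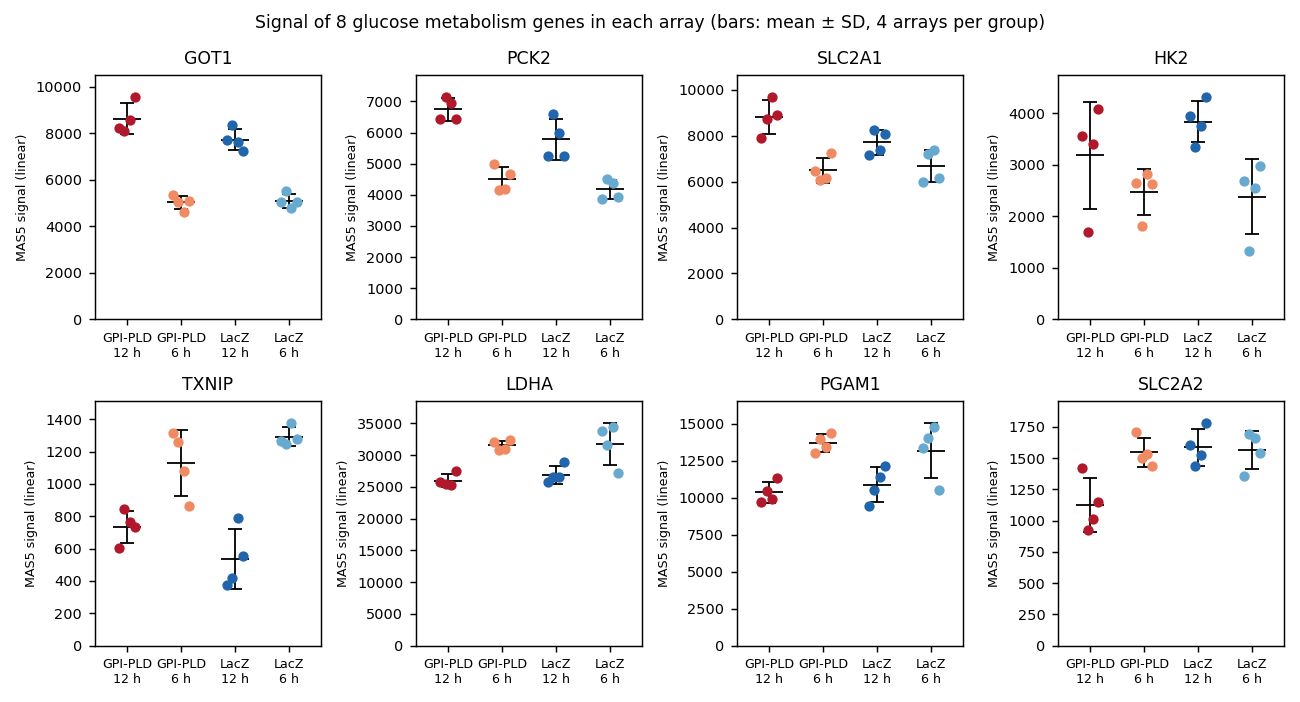
MAS5 signal (y axis, linear) of 8 genes in every array, by group (x axis: GPI-PLD 12 h, GPI-PLD 6 h, LacZ 12 h, LacZ 6 h; 4 arrays each), with bars at the mean and ± 1 SD. GOT1 and PCK2 stand higher at 12 h under both viruses, TXNIP stands lower, and SLC2A2 has its lowest mean in GPI-PLD 12 h. In LacZ 6 h, 1 array of LDHA (27241.5) and 1 of PGAM1 (10514.0) lie under the rest of their group.

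Hexokinases trap glucose as glucose 6-phosphate. HK2, an isoform typical of muscle and tumour cells, read 3944.0, 3342.4, 3752.9 and 4319.5 in LacZ cells at 12 h, against 2683.8, 1328.2, 2545.3 and 2976.9 at 6 h. The groups did not overlap, yet the difference of 1.66-fold did not pass (log2 0.73 ± 0.25, adjusted p 0.103), and a second HK2 probe set went the other way (-0.58 ± 0.28). It passed in 2 alternatives: with only the 8 arrays compared (adjusted p 0.0321), and without GPI-PLD 12 h replicate 2 (0.0144), an array outside the comparison that enters the shared estimate of spread. In GPI-PLD cells HK2 read 3557.3, 1696.3, 3403.4 and 4091.2 at 12 h, against 2637.3, 1812.0, 2813.5 and 2623.5 at 6 h (0.31 ± 0.25, adjusted p 0.512). HK1, the constitutive isoform, was under the filter, with 17.6 to 110.1 over all arrays.

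The isomerase gene GPI, which interconverts glucose and fructose 6-phosphates, averaged 3999.4 ± 196 in GPI-PLD 12 h, 4228.1 ± 203 in GPI-PLD 6 h, 4405.1 ± 447 in LacZ 12 h and 3846.9 ± 762 in LacZ 6 h. Its time effects were -0.08 ± 0.11 in GPI-PLD and 0.21 ± 0.11 in LacZ cells (adjusted p 0.734 and 0.312).

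Phosphofructokinase, the main controlled step of glycolysis, has liver (PFKL), muscle (PFKM) and platelet (PFKP) subunits, and none passed in either virus. PFKL, the subunit named for liver, averaged between 1289.4 and 1433.6 in the 4 groups, with time effects of -0.14 ± 0.14 in GPI-PLD and 0.08 ± 0.14 in LacZ cells and opposite signs at its second probe set (0.15 and -0.03). PFKP read 275.6, 338.4, 381.8 and 286.5 in the GPI-PLD 12 h arrays, against 203.7, 125.2, 127.7 and 214.3 at 6 h, without overlap (0.75 ± 0.36, adjusted p 0.219). In LacZ cells PFKP read 93.3, 280.7, 145.7 and 199.8 at 12 h, against 354.7, 295.7, 241.8 and 94.1 at 6 h, with wide overlap (-0.32 ± 0.36, adjusted p 0.696). Its signals lay near the filter, and the difference of the time effects, 1.07, did not pass (95% interval 0.01 to 2.13, adjusted p 0.646).

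PFKM read 481.2, 506.6, 806.0 and 891.0 in the GPI-PLD 12 h arrays, against 417.8, 543.9, 548.7 and 368.2 at 6 h (0.43 ± 0.26, adjusted p 0.328). In LacZ cells the time effect was -0.14 ± 0.26. The PFKFB enzymes make and remove fructose 2,6-bisphosphate, the activator of phosphofructokinase. PFKFB1, the liver isoform, gave 0.42 ± 0.37 in GPI-PLD and 0.56 ± 0.37 in LacZ cells, and PFKFB2, the heart isoform, 0.39 ± 0.26 and -0.15 ± 0.26, with no adjusted p under 0.392. PFKFB3 and PFKFB4 were under the filter, with 11.6 to 303.5 and 42.2 to 328.4 over all arrays.

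The enzymes from aldolase to pyruvate kinase carry the bulk flow of glycolysis, and 1 of the 11 tested passed with time in GPI-PLD cells and none in LacZ cells. Over all genes tested 9.64% were called in GPI-PLD cells and 6.89% in LacZ cells, so the 1 call in GPI-PLD cells is near that share. In GPI-PLD cells 9 of the 11 differences were below 0 (median -0.12), and in LacZ cells 5 of 11 (median 0.06). Of all genes, 51.6% were above 0 in GPI-PLD cells and 50.6% in LacZ cells. PGAM1, phosphoglycerate mutase, read 9722.9, 10473.4, 9887.3 and 11332.7 in the GPI-PLD 12 h arrays, against 13018.3, 13941.3, 13404.7 and 14378.8 at 6 h. The groups did not overlap, and PGAM1 fell 1.32-fold (-0.40 ± 0.10, adjusted p 0.00786), a call kept in all 27 alternatives.

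In LacZ cells PGAM1 read 9439.3, 10532.3, 11374.3 and 12150.0 at 12 h, against 13347.7, 14045.9, 14767.2 and 10514.0 at 6 h. The difference was -0.27 ± 0.10 and did not pass (adjusted p 0.0982). LacZ 6 h replicate 4 was the low 6 h array, and without it PGAM1 passed (adjusted p 0.0103). The same array was the lowest of its group for 7 of the 11 genes, namely ALDOA, ALDOC, TPI1, PGAM1, ENO1, ENO2 and PKM, and for 36.1% of the 36 members, against 25.9% of all genes tested. Other arrays stood lowest more often among the 36 members: LacZ 12 h replicate 1 for 44.4% (25.0% of all genes), GPI-PLD 12 h replicate 2 for 41.7% (26%) and GPI-PLD 6 h replicate 1 for 38.9% (25.6%). Of the 11 genes, LacZ 12 h replicate 1 was lowest for 6. The part of LacZ 6 h replicate 4 in the other LacZ results was measured only by leaving it out, as given here and for LDHA.

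ALDOA, the main aldolase outside normal liver, read 14876.5, 12889.8, 14150.1 and 18166.2 in the GPI-PLD 12 h arrays, against 19637.7, 21609.6, 20040.4 and 18750.3 at 6 h. These arrays did not overlap, but the difference of -0.42 ± 0.18 did not pass (adjusted p 0.159). It passed when only the 8 arrays compared were fitted (adjusted p 0.0106). A second ALDOA probe set also gave -0.42 ± 0.14 (adjusted p 0.103). In LacZ cells ALDOA gave 0.06 ± 0.18 and the difference of the time effects was -0.48 ± 0.25 (adjusted p 0.699). The second probe set gave 0.22 ± 0.14 in LacZ cells. Its difference of the time effects was -0.65 ± 0.20 (limma on all probe sets, unadjusted p 0.00351, adjusted p 0.551). Between the viruses it gave -0.35 ± 0.14 at 12 h and 0.30 ± 0.14 at 6 h, and neither passed.

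TPI1, triose phosphate isomerase, read 7026.8, 6946.6, 7870.7 and 7014.2 in the GPI-PLD 12 h arrays, against 8769.1, 8057.0, 8160.9 and 9091.4 at 6 h. The groups did not overlap, and the difference was -0.24 ± 0.10 in GPI-PLD cells (adjusted p 0.133) and -0.14 ± 0.10 in LacZ cells. Its 2 other probe sets gave -0.26 ± 0.10 and 0.19 ± 0.34 in GPI-PLD cells.

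PGK1, phosphoglycerate kinase, read 10771.7, 10935.5, 11299.3 and 10826.4 in the GPI-PLD 12 h arrays, against 12535.8, 11597.5, 11621.2 and 11857.3 at 6 h, again without overlap. The difference was -0.12 ± 0.07 in each virus (adjusted p 0.353 in GPI-PLD and 0.38 in LacZ cells), and its 3 other probe sets were lower at 12 h under both. ENO2, the neuronal enolase, stood out from the downward differences. It read 1049.7, 982.8, 944.1 and 1182.7 in the GPI-PLD 12 h arrays, against 591.3, 754.3, 784.5 and 856.4 at 6 h, with every 12 h array higher. The difference of 0.45 ± 0.15 fell short of the threshold (adjusted p 0.0665), and ENO2 passed when LacZ 6 h replicate 4 was left out (adjusted p 0.0467). That array is outside this comparison and enters only the shared estimate of spread, so the difference stayed at 0.45.

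The most abundant enolase of most cells, ENO1, gave -0.09 ± 0.08 in GPI-PLD and -0.03 ± 0.08 in LacZ cells, and the muscle enolase ENO3 gave -0.08 ± 0.22 and 0.12 ± 0.22. ALDOC, the brain aldolase, gave -0.04 ± 0.14 and 0.15 ± 0.14. GAPDH, glyceraldehyde 3-phosphate dehydrogenase and a common loading control, averaged 66493.0 ± 1822 in GPI-PLD 12 h, 65594.8 ± 2688 in GPI-PLD 6 h, 62111.2 ± 5975 in LacZ 12 h and 66454.9 ± 8450 in LacZ 6 h. Its time effects were 0.02 ± 0.08 and -0.09 ± 0.08, with adjusted p of 0.917 and 0.575.

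Pyruvate kinase was read by PKM, the gene of the M1 and M2 forms, and PKLR, the liver and red cell gene. PKM gave -0.27 ± 0.14 in GPI-PLD cells (adjusted p 0.251) and 0.08 ± 0.14 in LacZ cells (0.83). A second, dimmer PKM probe set gave the opposite sign in GPI-PLD cells (0.43 ± 0.36). PKLR averaged 233.2 to 292.9 in the 4 groups and gave -0.19 ± 0.40 in GPI-PLD and 0.08 ± 0.40 in LacZ cells, with wide 95% intervals (-1.02 to 0.64 in GPI-PLD cells).

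LDHA encodes the lactate dehydrogenase subunit known for turning pyruvate into lactate. It read 25828.6, 25385.7, 25261.2 and 27456.9 in the GPI-PLD 12 h arrays, against 31982.0, 30858.0, 30882.3 and 32319.0 at 6 h. The spread within groups was small and the groups lay far apart, so that a fall of 1.21-fold passed (-0.28 ± 0.07, adjusted p 0.0141). LacZ cells gave nearly the same difference, 25741.0, 26500.1, 26470.0 and 28939.7 at 12 h against 33813.8, 31583.6, 34442.3 and 27241.5 at 6 h, which just missed the threshold (-0.23 ± 0.07, adjusted p 0.0503). LDHA in LacZ cells passed in 8 of 27 alternatives, with the smallest adjusted p, 0.00606, without LacZ 6 h replicate 4. The time effects of the viruses differed by -0.04 ± 0.10 (95% interval -0.25 to 0.17). LDHB, the heart-type subunit, was under the filter, with 18.8 to 250.9 over all arrays.

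Pyruvate dehydrogenase kinases switch off the entry of pyruvate into the citric acid cycle. PDK2 alone was tested, and it read 252.8, 469.0, 557.7 and 137.2 in the GPI-PLD 12 h arrays, against 378.0, 697.9, 722.1 and 729.6 at 6 h. The difference was -0.83 ± 0.32 in GPI-PLD cells (adjusted p 0.105) and 0.09 ± 0.32 in LacZ cells (0.921). Without GPI-PLD 12 h replicate 3 the GPI-PLD difference passed (-1.07, adjusted p 0.0397). The LacZ arrays read 575.9, 431.2, 712.2 and 707.2 at 12 h and 359.9, 884.4, 711.3 and 407.4 at 6 h, with wide overlap. A second PDK2 probe set gave the opposite sign in GPI-PLD cells, 0.43 ± 0.21, so the 2 readings of this gene conflict. PDK1 and PDK4 were under the filter, with 33.1 to 407.5 and 10.5 to 271.1 over all arrays.

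Of the 6 tested genes of gluconeogenesis, GOT1 and PCK2 rose with time under both viruses and the other 4 passed in neither. Over all genes tested 4.59% were called higher in GPI-PLD cells and 3.64% in LacZ cells. GOT1, the cytosolic aspartate aminotransferase that moves oxaloacetate carbon between mitochondria and cytosol, read 8222.3, 8096.0, 8590.5 and 9571.9 in the GPI-PLD 12 h arrays, against 5332.4, 5045.7, 4636.9 and 5106.7 at 6 h. In LacZ cells it read 7727.8, 8358.7, 7609.7 and 7237.5 at 12 h, against 5064.1, 5530.7, 4793.9 and 5027.4 at 6 h. Every 12 h array stood above every 6 h array. GOT1 rose 1.70-fold in GPI-PLD cells (0.77 ± 0.08, adjusted p 4.72e-07) and 1.51-fold in LacZ cells (0.59 ± 0.08, adjusted p 2.23e-05).

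PCK2, the mitochondrial PEP carboxykinase, read 6445.7, 7149.8, 6949.6 and 6430.4 in the GPI-PLD 12 h arrays, against 4982.7, 4149.4, 4180.5 and 4667.5 at 6 h. In LacZ cells it read 5260.0, 6597.7, 6000.3 and 5255.1 at 12 h, against 3871.4, 4496.2, 4396.7 and 3935.8 at 6 h. The times were separate under each virus. PCK2 rose 1.5-fold in GPI-PLD cells (0.58 ± 0.09, adjusted p 0.000132) and 1.37-fold in LacZ cells (0.46 ± 0.09, adjusted p 0.00237). The rises of both genes were called in all 27 alternatives under each virus. Leaving out an array of the other virus changed only the shared spread and could not move the difference. Each gene had 1 probe set, so the mean of probe sets left its values as they were. The viruses' time effects differed by 0.17 ± 0.11 for GOT1 (adjusted p 0.758) and 0.12 ± 0.13 for PCK2 (0.852).

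PCK1, the hormone-regulated cytosolic isoform of PEP carboxykinase, did not share the rise of PCK2: its time effects were -0.10 ± 0.30 in GPI-PLD and -0.25 ± 0.30 in LacZ cells (adjusted p 0.885 and 0.726). Pyruvate carboxylase, PC, gave -0.31 ± 0.31 and 0.25 ± 0.31, and fructose bisphosphatase, FBP1, gave -0.05 ± 0.34 and -0.47 ± 0.34. SLC37A4, which carries glucose 6-phosphate into the endoplasmic reticulum, gave -0.30 ± 0.15 and -0.25 ± 0.15 (adjusted p 0.245 and 0.388), and its second probe set gave -0.33 ± 0.20 and 0.11 ± 0.20. G6PC1, the catalytic subunit of glucose 6-phosphatase, was under the filter, with 9.0 to 248.4 over all arrays.

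The 6 tested glycogen genes showed no call with time in either virus. Over all genes the shares called were 9.64% in GPI-PLD and 6.89% in LacZ cells. GYS1, the muscle-type glycogen synthase, gave -0.14 ± 0.17 in GPI-PLD and -0.09 ± 0.17 in LacZ cells, and PYGL, the liver glycogen phosphorylase, gave 0.05 ± 0.12 and 0.13 ± 0.12. UGP2, which makes the UDP-glucose used for glycogen, gave 0.03 ± 0.08 and 0.18 ± 0.08 (adjusted p 0.211 in LacZ). The branching enzyme GBE1 gave -0.08 ± 0.11 and -0.06 ± 0.11, and PPP1R3C, a glycogen-targeting subunit of protein phosphatase 1, gave 0.07 ± 0.13 and 0.12 ± 0.13. PGM1, phosphoglucomutase, averaged 4214.0 ± 187 in GPI-PLD cells at 12 h and 4927.0 ± 464 at 6 h (-0.22 ± 0.08, adjusted p 0.104), with -0.09 ± 0.08 in LacZ cells. GYS2, the liver synthase, and PYGB, the brain phosphorylase, were under the filter, with 8.1 to 166.9 and 66.3 to 350.3 over all arrays. Fitted with no filter, none of the 9 dim genes was called in any comparison, and the smallest p was that of PYGB with time in LacZ cells (0.87 ± 0.33, adjusted p 0.175).

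**Figure D3:**
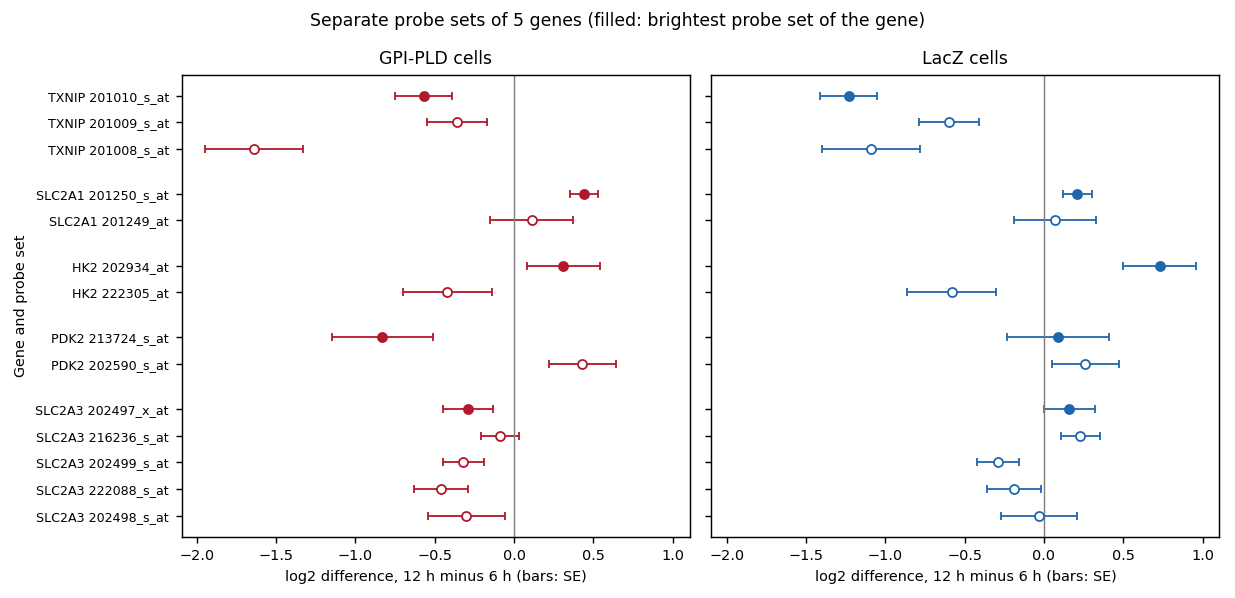
Log2 difference between 12 h and 6 h (x axis, 12 h minus 6 h) for each probe set (y axis) of 5 genes in GPI-PLD cells (left) and LacZ cells (right). Bars are standard errors and filled points are the brightest probe set of each gene. The 3 TXNIP probe sets all lie below 0, whereas the HK2 sets lie on opposite sides under both viruses, as do the PDK2 sets in GPI-PLD cells.

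GPI-PLD was compared with LacZ at each time to ask whether the enzyme's virus altered expression in hepatoma cells. In limma, 0 of the 36 genes passed at 12 h and 0 at 6 h, and over all 8109 genes the shares called were 0.0% and 0.0%. At an unadjusted p under 0.05 there were 7 of the 36 at 12 h (19.4%, against 7.2% of all genes) and 1 at 6 h (2.78%, against 4.62%). The same test without the trended, robust spread called 2 of all genes at 6 h. Median differences of GPI-PLD minus LacZ over the 36 genes were -0.05 at 12 h and 0.05 at 6 h, with 0.01 and 0.0 over all genes.

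At 12 h the smallest p was that of SLC2A2, whose per-array signals are given above. It averaged 1127.3 ± 215 in GPI-PLD and 1585.9 ± 147 in LacZ cells, and the 1.40-fold lower signal of the GPI-PLD arrays did not pass (log2 -0.48 ± 0.13, adjusted p 0.38; 0.212 to 0.641 over the alternatives). The GPI-PLD 12 h arrays enter this comparison, the time effect in GPI-PLD cells and the difference of the time effects, so that these 3 readings of SLC2A2 are not independent. SLC2A3 read 2366.9, 2434.1, 1711.3 and 2545.6 in the GPI-PLD 12 h arrays, against 2918.8, 2601.8, 3047.8 and 3436.3 in LacZ cells. All GPI-PLD arrays lay below all LacZ arrays, and the difference was -0.41 ± 0.16 (adjusted p 0.658), with -0.35 to 0.04 at its other 4 probe sets.

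TXNIP, with the 12 h signals given above, differed by 0.46 ± 0.18 at 12 h (adjusted p 0.658), and its 2 other probe sets gave 0.42 and -0.63. PFKM read 481.2, 506.6, 806.0 and 891.0 in the GPI-PLD 12 h arrays, against 530.2, 334.5, 278.1 and 427.8 in LacZ cells (0.68 ± 0.26, adjusted p 0.637). The groups overlapped by 1 LacZ array. PDK2 differed by -0.79 ± 0.32 (adjusted p 0.658) and by 0.40 at its second probe set, PCK2 by 0.23 ± 0.09 (0.658) and SLC2A1 by 0.19 ± 0.09 (0.686), with -0.17 ± 0.26 at its second probe set. UGP2 read 6663.7, 5795.8, 6239.5 and 6627.6 in the GPI-PLD 12 h arrays, against 7303.3, 6726.8, 7125.4 and 6972.1 in LacZ cells. All GPI-PLD arrays lay below all LacZ arrays (-0.15 ± 0.08, adjusted p 0.718).

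At 6 h the 4 smallest p-values belonged to PKM, ENO3, GPI and GBE1, all with an adjusted p of 0.998. PKM read 5108.2, 5685.8, 5516.0 and 6598.0 in the GPI-PLD 6 h arrays, against 4308.6, 4952.5, 5187.7 and 3833.3 in LacZ cells, with 1 array overlapping (0.33 ± 0.14; -0.32 ± 0.36 at its second probe set). ENO3 read 504.1, 571.2, 467.7 and 420.2 in GPI-PLD cells, against 237.7, 508.7, 360.1 and 410.1 in LacZ cells (0.36 ± 0.22). GPI read 3977.1, 4473.3, 4244.6 and 4217.4 in GPI-PLD cells, against 4240.2, 3571.4, 4655.2 and 2920.8 in LacZ cells (0.15 ± 0.11).

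GBE1 read 1629.2, 1735.5, 1890.2 and 2086.2 in the GPI-PLD 6 h arrays, against 2258.5, 1702.4, 1988.0 and 2187.0 in LacZ cells (-0.14 ± 0.11). In ENO3, GPI and GBE1 the arrays of the 2 viruses were interleaved. None of the genes that moved with time differed between the viruses at 6 h by more than 0.20 to either side, with -0.02 ± 0.08 for GOT1, 0.10 ± 0.09 for PCK2, -0.01 ± 0.07 for LDHA and -0.20 ± 0.18 for TXNIP.

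**Figure D4:**
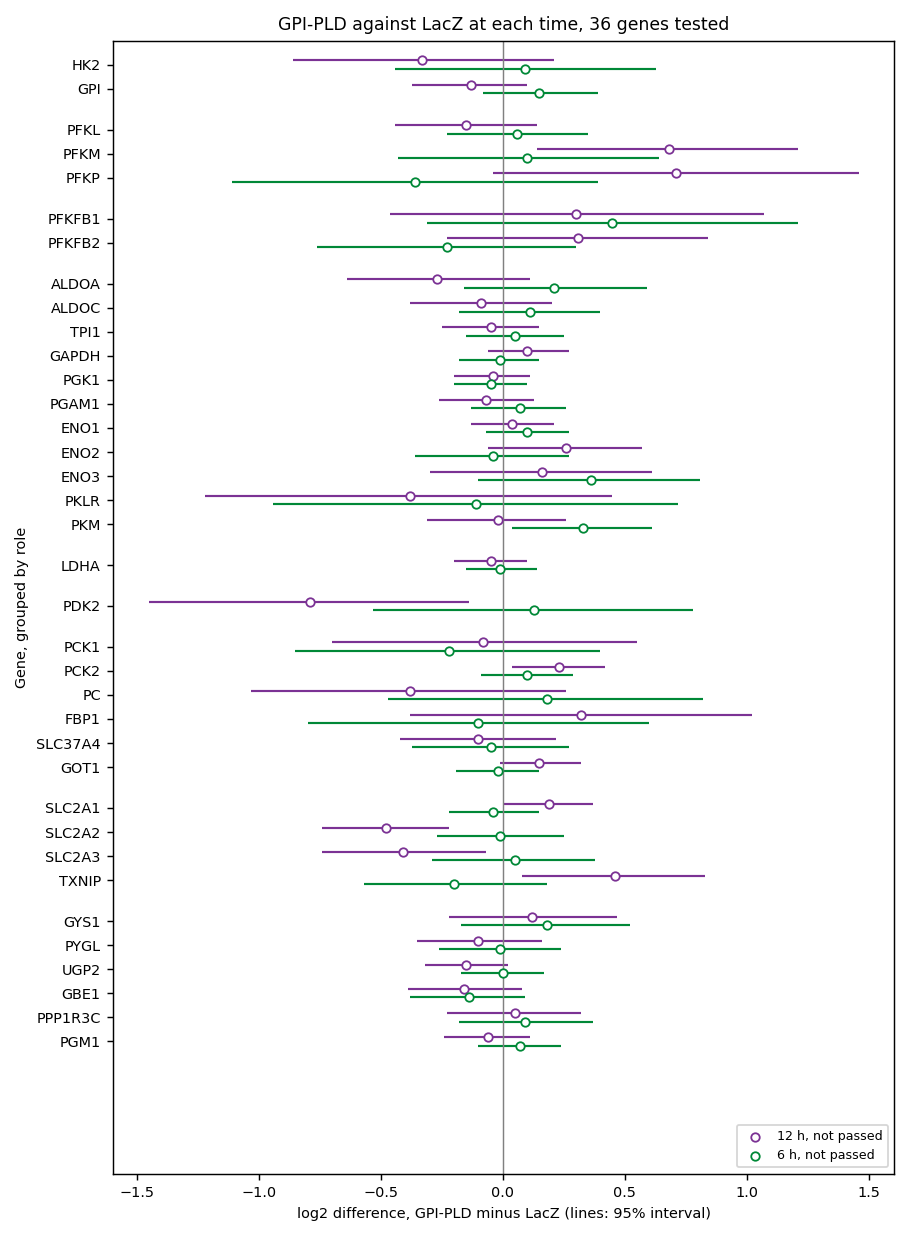
Log2 difference between GPI-PLD and LacZ cells (x axis, GPI-PLD minus LacZ) for the 36 tested genes (y axis, grouped by role) at 12 h (purple) and 6 h (green), with 95% intervals. No point is filled because 0 genes passed at either time. At 12 h the intervals of SLC2A2, SLC2A3 and PDK2 lie below 0 and those of PFKM, TXNIP, PCK2 and SLC2A1 above 0 before adjustment.

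Whether the change with time differed between the viruses was tested directly. In limma 0 of the 36 genes passed, 3 had an unadjusted p under 0.05 (8.33%, against 7.58% of all genes), and 0.0123% of all genes were called, which is 1 gene. Differences were below 0 for 24 of the 36 genes, with a median of -0.07 against 0.0 over all genes. The smallest p-values, read at each gene's brightest probe set, were those of SLC2A2 (-0.47), TXNIP (0.65), PFKP (1.07) and PDK2 (-0.92), with adjusted p of 0.508 to 0.655. The second ALDOA probe set, given above, had a smaller unadjusted p in the fit of all probe sets and did not pass either. The median 95% interval reached 0.41 log2 units to either side.

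Other genes of glucose metabolism, from 7 lists of 135 symbols, were read in the same fit, and 84 of the 104 on the array were tested. In GPI-PLD cells 4 rose and 4 fell with time (4.76% each way), and in LacZ cells 2 rose and 2 fell (2.38% each way), with medians of -0.08 and 0.0. Over all genes tested the shares were 4.59% up and 5.06% down in GPI-PLD cells and 3.64% and 3.26% in LacZ cells, so these lists stood near or below the background. None passed between the viruses or in the difference of the time effects. GFPT1, which diverts fructose 6-phosphate into hexosamine synthesis, rose 1.48-fold in GPI-PLD (0.57 ± 0.10, adjusted p 0.000554) and 1.82-fold in LacZ cells (0.86 ± 0.10, adjusted p 2.77e-06). HIF1A, the oxygen-regulated factor known to drive glycolysis genes, rose 1.29-fold in GPI-PLD (0.37 ± 0.08, adjusted p 0.00576) and 1.34-fold in LacZ cells (0.42 ± 0.08, adjusted p 0.00254).

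HKDC1, a hexokinase family member, averaged 679.7 at 12 h and 232.9 at 6 h in GPI-PLD cells and rose 2.47-fold (1.30 ± 0.22, adjusted p 0.000346). In LacZ cells it averaged 621.0 at 12 h and 366.2 at 6 h (0.66 ± 0.22, adjusted p 0.0776). SLC2A9, a urate and hexose transporter, rose in GPI-PLD cells (0.46 ± 0.10, adjusted p 0.00369) and was 0.15 ± 0.10 in LacZ cells (0.426). MPC2, a subunit of the mitochondrial pyruvate carrier, fell under both viruses (-0.27 ± 0.07 in GPI-PLD, adjusted p 0.0186, and -0.32 ± 0.07 in LacZ, 0.00584).

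Cytosolic malate dehydrogenase, MDH1, which works beside GOT1 in the malate-aspartate shuttle, fell in LacZ cells (-0.26 ± 0.07, adjusted p 0.0161) and was -0.16 ± 0.07 in GPI-PLD cells (0.134). SLC25A13, the liver aspartate-glutamate carrier of the same shuttle, fell in GPI-PLD cells (-0.51 ± 0.14, adjusted p 0.024) and was 0.00 ± 0.14 in LacZ cells. KHK, which phosphorylates fructose, fell in GPI-PLD cells (-0.59 ± 0.16, adjusted p 0.0191) and was -0.51 ± 0.16 in LacZ cells (0.0535). All 11 tested pentose phosphate genes were at or below 0 with time in GPI-PLD cells (-0.45 to 0.0), and 1 passed: PRPS1, which makes phosphoribosyl pyrophosphate for nucleotides (-0.45 ± 0.10, adjusted p 0.00531). In LacZ cells 8 of the 11 were lower and none passed. Of all genes, 51.6% were above 0 in GPI-PLD cells and 50.6% in LacZ cells, and 5.06% and 3.26% were called lower.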

How the data were processed

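The authors deposited signals of 16 Affymetrix arrays of HepG2 cells, in 4 groups of 4 by virus and time, as one table of 22283 probe sets (68 of them controls). The values are MAS5 intensity on a linear scale, per the submitters' processing notes; in the deposited signals each array's 2% trimmed mean was 1000.3 to 1000.4. The scanner and other steps are not given in the sources used here. Array medians differed by 1.24 times at most, so no rescaling was applied. Replicates were numbered in deposited order, because the labels number none.

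A gene was read by its single-symbol probe set with the highest mean. It was tested where that mean reached the 40th percentile (208.5). Limma 3.58.1 (R 4.3.3, statmod 1.5.0) fitted log2(signal + 63), where 63 is the 20th percentile, to the 4 groups with trended, robust eBayes (degrees of freedom: 12 residual, 10.6 prior at the median). P-values were Benjamini-Hochberg adjusted over 8109 genes within a comparison and called under 0.05. Errors are SE of log2 differences and SD of signals. Folds are on the log2(signal + 63) scale and understate changes of dim genes. The number of arrays limits the precision.

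Members and lists were chosen with earlier results of these data known. Signals in every array are given for members called with time at 0.5 log2 units or more and for the 4 smallest p-values in each other comparison. Per-array signals of further members that were called, or whose arrays did not overlap, were added after their values were seen. Of other genes of glucose metabolism, those among the 3 smallest p-values of a list and time comparison that passed are named. The 27 alternatives were 11 other settings and each array left out in turn. Leaving out an array that is not in a comparison changes only the shared spread, not the difference. For a gene with 1 probe set, the mean of probe sets leaves the values unchanged. The steps were tested on simulated data. Tables and plots used Python 3.11.15, pandas 2.3.3, numpy 2.4.6 and matplotlib 3.10.9. Gene symbols came from the platform annotation; promoters came from RefSeq (GRCh38.p14).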

Additional observations from a re-analysis of the deposited data

Results flagged for a closer look

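In 8 of 180 sets of 4 arrays (each of the 45 genes in each group), 1 array stood apart from the other 3 by a gap that was large against the whole range. Chance alone marks about 1 in 20 such sets, which is more than were found. TPI1 was high in GPI-PLD 12 h replicate 3 (7870.7, against 6946.6 to 7026.8 in the others). PGK1 was high in LacZ 12 h replicate 2 (12938.3, against 10742.1 to 10857.9). ENO2 was low in LacZ 6 h replicate 4 (590.9, against 812.1 to 856.8), as was SLC2A3 in the same array (2019.3, against 2870.5 to 2991.1). PKLR was low in GPI-PLD 6 h replicate 3 (90.1, against 302.1 to 326.1). PDK2 was low in GPI-PLD 6 h replicate 1 (378.0, against 697.9 to 729.6). Of the genes under the filter, G6PC1 was high in GPI-PLD 12 h replicate 4 (193.7, against 16.6 to 25.8) and GYS2 in LacZ 12 h replicate 1 (166.9, against 10.2 to 17.1).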

How the results depend on the processing

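The rises of GOT1 and PCK2 under both viruses were called in all 27 alternatives. So were the falls of TXNIP in LacZ cells and PGAM1 in GPI-PLD cells. Some of these alternatives left out an array of the other virus, which changes only the shared spread. None of the 26 differences with a range over the alternatives changed sign, although PKM at 6 h reached 0.0. The small median time effect over all genes changed sign under some alternatives (-0.01 under each virus with quantile normalization, -0.04 in LacZ cells with 75th percentile scaling). In GPI-PLD cells 2 genes in place of 4 were called lower with time in the fit of all probe sets and in eBayes without trend and robust, and 2 to 4 with single arrays left out. LDHA there was lost in 1 alternative (eBayes without trend and robust, adjusted p 0.0654) and SLC2A1 in 1 (mean of probe sets). In LacZ cells 2 genes in place of 1 were called lower with 75th percentile scaling, no pseudocount, the filter at the 60th percentile, the mean of probe sets and array weights, and 1 to 3 with single arrays left out. The difference of the time effects called 1 of all genes, against 0 with quantile normalization, 75th percentile scaling, no filter, the mean of probe sets, all probe sets and eBayes without trend and robust, 2 with 4 times the pseudocount and with the filter at the 60th percentile, and 0 to 3 with single arrays left out. Between the viruses, 2 genes were called at 6 h by eBayes without trend and robust, and 0 to 2 at 12 h with single arrays left out. The causes were not tested. No paired analysis was possible because the labels give no replicate numbers. Genes near or under the filter have wide intervals, and with 4 arrays a group changes under about 0.29 log2 units were mostly not detectable. That size comes from unadjusted intervals, and the adjusted test left some larger differences uncalled.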
